A study of Mus musculus with 6 samples.

Results

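The BCL2 family holds the genes that set whether a cell keeps its outer mitochondrial membrane intact or starts the intrinsic death program, and 10 of them were followed here in activated type 2 innate lymphoid cells (aILC2s) treated with melatonin. The 10 members were given by name (*Bcl2*, *Bcl2l1*, *Mcl1*, *Bcl2a1b*, *Bax*, *Bak1*, *Bcl2l11*, *Bid*, *Bbc3* and *Pmaip1*), and all 10 were found by symbol among the 16381 genes of the table. The cells were ILC2s sorted from the lungs of wild-type BALB/cJ mice, given by the methods as females of 6 to 8 weeks, after intranasal IL-33 at 0.5 µg per day for 3 days. The sorted cells were cultured for 24 h with 250 µM melatonin (3 samples) or with an equal volume of its solvent DMSO as vehicle (3 samples), so both groups were wild type and both came from IL-33-challenged animals. The labels do not say whether the 3 samples of a group were separate cultures or animals. The p-values therefore measure the spread between these samples, which may be technical in part. Genes of the sex chromosomes, given below, show that the melatonin samples did not all come from the same pool of cells.

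Proteins of this family work by binding each other. The prosurvival members (BCL2, BCL-XL from *Bcl2l1*, MCL1 and A1 from the *Bcl2a1* genes) hold the pore-forming effectors BAX and BAK in check, and the BH3-only members (BIM from *Bcl2l11*, BID, PUMA from *Bbc3* and NOXA from *Pmaip1*) relieve that hold or activate the effectors directly. In lymphocytes, IL-7 and IL-2 are known for keeping BCL2 and MCL1 up, and BIM is a main trigger of death when these cytokines are withdrawn. The data measure RNA per gene, so they tell nothing of protein level, of binding or of splice forms such as the long and short forms of BCL-XL and MCL1.

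The files held between 17056267 and 20511700 estimated counts per sample. Each value below is a normalized count, which is the authors' estimated count divided by a size factor of the sample. A gene was called where limma on log2(normalized count + 1) gave a Benjamini-Hochberg adjusted p under 0.05 over the 14419 genes tested. Log2 fold changes are melatonin over vehicle on that scale. The libraries of melatonin replicates 2 and 3 stood apart from the other 4 in genes of the sex chromosomes. *Xist*, the RNA that silences an X chromosome, was at 579 and 1092 in these samples, at 0 in melatonin replicate 1 and between 5.81 and 13.6 in vehicle. The Y-linked *Ddx3y*, *Kdm5d*, *Uty* and *Eif2s3y* were listed at 0 in melatonin replicates 2 and 3 and were between 298 and 1363 in the other 4 samples, although the methods name female mice. Y-linked transcripts were thus in all 3 vehicle samples but in a single melatonin sample, so this difference is partly confounded with treatment. All 10 members lie on autosomes. Values without these 2 libraries compare the single remaining melatonin sample with the 3 vehicle samples, and assume that it varied like them.

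Of the 10 members, 4 were called higher with melatonin (*Bcl2*, *Bcl2l1*, *Mcl1*, *Bcl2l11*), 4 were called lower (*Bcl2a1b*, *Bax*, *Bak1*, *Bid*) and 2 were not called (*Bbc3*, *Pmaip1*). Across all genes tested, 49.2% were called, 24.5% higher and 24.7% lower, so a call alone does not set a member apart. The melatonin values lay wholly above the vehicle values for 4 members and wholly below them for 4, against 30.0% and 30.3% of all genes tested. All 10 members reached the minimum of 10 normalized counts in both groups, so none was tested because of a single group. With groups of 3, an exact permutation test (two-sided) has 0.1 as its smallest p, and it gave 0.1 for each of the 8 called members.

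**Figure D1:**
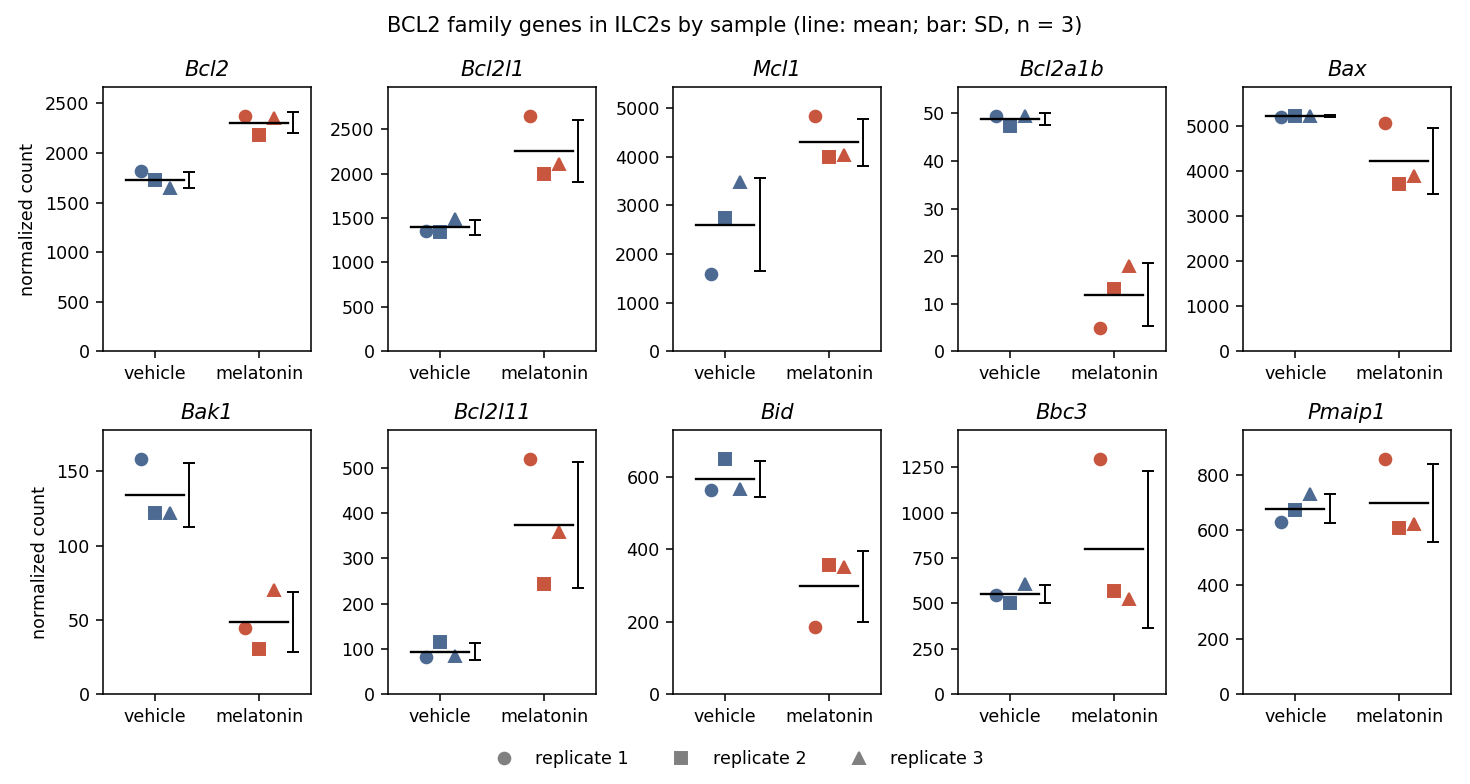
Normalized counts (y axis, linear, starting at 0, with its own scale for each gene) of the 10 BCL2 family genes in the 3 vehicle and 3 melatonin samples. Each point is a sample, with the replicate number as its shape, the line is the group mean and the bar the SD (n = 3). The groups are separate for all genes but *Bbc3* and *Pmaip1*, in which melatonin replicate 1 is above the other 5 samples.

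Among the prosurvival genes, *Bcl2*, *Bcl2l1* and *Mcl1* rose and *Bcl2a1b* fell. *Bcl2*, whose protein sits in the outer mitochondrial membrane and the founding gene of the family, was at 2378, 2184 and 2352 in melatonin replicates 1, 2 and 3 and at 1814, 1727 and 1648 in vehicle replicates 1, 2 and 3. The lowest melatonin sample was above the highest vehicle sample, and the means of 2305 ± 105 and 1730 ± 83.5 (SD, n = 3) differed 1.33-fold. The log2 fold change was 0.41 with an SE of 0.08 (limma, adjusted p = 0.0028). It was the smallest of the 4 called rises and also the steadiest, since leaving out any single sample kept it between 0.38 and 0.45. *Bcl2* lies at chr1:106465908-106642060 on the minus strand of GRCm39, and its main transcript has 2 exons.

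*Bcl2l1*, which makes the prosurvival protein BCL-XL, was at 2653, 1996 and 2107 in melatonin replicates 1, 2 and 3 and at 1358, 1336 and 1489 in the vehicle samples. The groups did not overlap, and melatonin replicate 1 was above the other melatonin samples. The means were 2252 ± 352 and 1394 ± 82.6 (SD, n = 3), a 1.62-fold difference, with a log2 fold change of 0.68, an SE of 0.11 and an adjusted p of 0.0015 (limma). The gene lies at chr2:152622582-152673655 on the minus strand. It was called without each sample in turn, with log2 fold changes from 0.56 to 0.76.

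*Mcl1*, a short-lived prosurvival protein that many lymphocytes need, was at 4851, 3990 and 4046 with melatonin and at 1580, 2742 and 3475 in vehicle replicates 1, 2 and 3. The melatonin samples were close to each other, and the vehicle samples were spread more than 2-fold. The means were 4296 ± 482 and 2599 ± 955 (SD, n = 3), 1.65-fold apart, with a log2 fold change of 0.79 and an SE of 0.24 (limma, adjusted p = 0.024). The call depended on single samples: the adjusted p (limma) was 0.060 without melatonin replicate 1 and 0.052 without melatonin replicate 2. Over the 6 fits that left out a sample, the log2 fold change stayed between 0.47 and 1.04. *Mcl1* lies at chr3:95566026-95570487 on the plus strand.

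*Bcl2a1b* is among the mouse copies of the gene for A1, a prosurvival protein of blood cells that is induced by NF-κB. It was at 4.85, 13.0 and 17.9 in melatonin replicates 1, 2 and 3 and at 49.4, 47.3 and 49.6 in the vehicle samples. The vehicle samples were nearly alike and the melatonin samples were all far below them. The means were 11.9 ± 6.58 and 48.8 ± 1.26 (SD, n = 3), 4.10-fold lower with melatonin, with a log2 fold change of −2.11 and an SE of 0.44 (limma, adjusted p = 0.0043). The lowest sample rested on 5.20 estimated counts. *Bcl2a1b* lies at chr9:89081262-89089889 on the plus strand.

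The value of *Bcl2a1b* cannot be taken as that of this copy alone, because the mouse genome holds near-identical copies and the authors' algorithm divided reads among genes. The first 100 bases of the coding sequences of the 3 copies with values are shown to let the reader see how little separates them, from the start codon (GENCODE M39, GRCm39, chromosome 9), with the positions at which the copies are not all alike in capitals.
Bcl2a1a: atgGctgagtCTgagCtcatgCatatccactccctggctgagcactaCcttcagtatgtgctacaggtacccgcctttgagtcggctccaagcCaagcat
Bcl2a1b: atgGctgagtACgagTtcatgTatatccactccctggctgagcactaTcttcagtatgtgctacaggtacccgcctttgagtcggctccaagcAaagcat
Bcl2a1d: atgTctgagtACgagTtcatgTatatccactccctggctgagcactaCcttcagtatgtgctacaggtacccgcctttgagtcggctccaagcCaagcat
Over the whole coding length of 516 bases without the stop codon, the copies differed at 12 positions, 7 of them in the stretch shown. *Bcl2a1b* and *Bcl2a1d* differed at 6 positions (98.8% identity), *Bcl2a1a* and *Bcl2a1d* at 7 (98.6%) and *Bcl2a1a* and *Bcl2a1b* at 11 (97.9%). The longest run alike in all 3 copies was 217 bases.

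Summing the 3 copies with values removes the question of which of these 3 a read came from. The sum was 52.3, 97.2 and 116 in melatonin replicates 1, 2 and 3 and 374, 277 and 261 in the vehicle samples. The means were 88.7 ± 32.9 and 304 ± 60.7 (SD, n = 3), 3.43-fold lower with melatonin, and the log2 fold change was −1.83 with an SE of 0.29 (limma, adjusted p = 0.0011). *Bcl2a1d* made up between 74.4% and 88.7% of the sum in any sample and *Bcl2a1b* between 9.28% and 19.0%. *Bcl2a1a* was at −2.36 and *Bcl2a1d* at −1.71 in log2 fold change (limma, adjusted p = 0.0098 and 0.0013). *Bcl2a1c* had no row in the table, so the sum does not cover it.

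Both pore-forming effectors were called lower, *Bak1* by a wide margin and *Bax* by a narrow one. *Bak1* encodes BAK, which resides in the outer mitochondrial membrane. It was at 44.8, 30.6 and 70.4 in melatonin replicates 1, 2 and 3 and at 159, 122 and 122 in the vehicle samples. The highest melatonin sample was well under the lowest vehicle sample. The means of 48.6 ± 20.2 and 134 ± 21.3 (SD, n = 3) were 2.76-fold apart, with a log2 fold change of −1.51 and an SE of 0.30 (limma, adjusted p = 0.0033). *Bak1* lies at chr17:27238784-27247983 on the minus strand, and it stayed called without each sample in turn, with log2 fold changes from −1.82 to −1.23.

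*Bax* encodes the effector that moves from the cytosol to mitochondria. It was at 5069, 3721 and 3885 in melatonin replicates 1, 2 and 3 and at 5208, 5234 and 5238 in the vehicle samples. The vehicle samples were within a CV of 0.309%, and melatonin replicate 1 was close to them. The means were 4225 ± 735 and 5227 ± 16.2 (SD, n = 3), with a log2 fold change of −0.32 and an SE of 0.11 (limma, adjusted p = 0.043). Of the 6 fits that left out a sample, only the fit without melatonin replicate 1 kept the call, at −0.46 (limma, adjusted p = 0.00042). A correction for transcript length, added after the data had been seen, brought the log2 fold change to −0.06 (limma, adjusted p = 0.72), so the call of *Bax* is not firm. The gene lies at chr7:45111015-45116325 on the minus strand, and its main transcript of 0.976 kb is among the shorter ones of the family.

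Markers of several other cell types moved in the same direction as *Bcl2a1b* and *Bak1*. By the methods, the sort had removed cells positive for CD3ε, CD4, CD5, TCRβ, TCRγδ, B220, CD335, CD11c, CD11b, Gr-1, FcεRIα or Ter119, to a purity above 95%. In bulk samples, fewer cells of a type and less RNA per cell cannot be told apart. The summed markers of macrophages or dendritic cells (5 of 5 listed, 4 called lower) ranged from 364 to 821 with melatonin and from 1397 to 1588 with vehicle. The summed NK cell markers (3 of 3 listed, 2 called lower) ranged from 17.1 to 28.4 and from 197 to 262, with *Klrb1c* at 0 in all melatonin samples and *Ncr1*, which encodes CD335, at 0, 0 and 1.01. The summed T cell markers (3 of 6 listed, all 3 called lower) ranged from 1710 to 2421 and from 5031 to 5471, and *Cd4*, *Cd5* and *Cd8a* had no row. Most of that sum was *Trbc1* and *Trbc2*, with *Cd3e* between 39.2 and 117 with melatonin and between 192 and 226 with vehicle. Whether these transcripts came from T cells was not tested. The neutrophil markers (3 of 4 listed, 1 called lower) summed to between 0 and 4.37 and between 13.6 and 75.6, with *Csf3r* at 0 in all melatonin samples. The endothelial marker *Pecam1* was between 310 and 416 and between 1001 and 1066, and *Cdh5* had no row. Of the epithelial markers (4 of 4 listed), 3 were called lower. *Scgb1a1* was at 1.01 or less with melatonin and between 21.6 and 1045 with vehicle, *Sftpc* between 3.02 and 6.54 and between 122 and 389, and *Krt8* at 0 in all melatonin samples and between 4.67 and 105. *Epcam* was called higher at 0.72 (limma, adjusted p = 0.0011), and it made the sums overlap, between 1022 and 1236 with melatonin and between 877 and 2173 with vehicle. The mast cell or basophil markers (2 of 5 listed, 1 tested and not called) summed to between 1.87 and 36.2 and between 2.81 and 16.8. Of the 3 B cell markers only *Cd79a* had a row, at 9.33 or less in all samples, and the fibroblast markers had none. The part of these cell types in the fall of *Bcl2a1b* and *Bak1* was not tested. The ILC2 markers (12 of 12 listed, 7 called lower and 2 higher) were present in all samples and summed to between 151870 and 169740 with melatonin and between 218470 and 232540 with vehicle.

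Among the BH3-only genes, *Bcl2l11* rose, *Bid* fell and *Bbc3* and *Pmaip1* were not called. *Bcl2l11*, which encodes BIM, was at 520, 244 and 358 in melatonin replicates 1, 2 and 3 and at 81.2, 115 and 85.0 in the vehicle samples. The lowest melatonin sample was more than 2-fold above the highest vehicle sample. The means of 374 ± 139 and 93.8 ± 18.7 (SD, n = 3) differed 3.99-fold, with a log2 fold change of 1.93 and an SE of 0.27 (limma, adjusted p = 0.00059). This was the largest rise among the 10 members, and it stayed between 1.66 and 2.21 without each sample in turn. *Bcl2l11* lies at chr2:127967958-128004476 on the plus strand.

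*Bid*, whose protein is cut by caspase 8 and links death receptors to mitochondria, was at 184, 356 and 351 in melatonin replicates 1, 2 and 3 and at 563, 650 and 565 in the vehicle samples. All melatonin samples were below all vehicle samples, and melatonin replicate 1 was the lowest. The means were 297 ± 98.1 and 593 ± 49.8 (SD, n = 3), with a log2 fold change of −1.05 and an SE of 0.24 (limma, adjusted p = 0.0061). The gene lies at chr6:120862525-120894171 on the minus strand.

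*Bbc3* encodes PUMA, a direct target of p53. It was at 1298, 568 and 526 in melatonin replicates 1, 2 and 3 and at 546, 503 and 606 in the vehicle samples. Melatonin replicate 1 stood alone, and the other 5 samples overlapped. The means were 797 ± 434 and 552 ± 51.9 (SD, n = 3), with a log2 fold change of 0.41, a 95% interval from −0.27 to 1.08 and an adjusted p of 0.28 (limma). Without melatonin replicate 1 the log2 fold change was −0.01, with an adjusted p of 0.95 (limma), and with replicate 1 as the only melatonin sample it was 1.24, with an adjusted p of 0.00063 (limma). The gene lies at chr7:16042318-16052130 on the plus strand.

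*Pmaip1* encodes NOXA, which binds MCL1. It was at 861, 609 and 623 in melatonin replicates 1, 2 and 3 and at 627, 675 and 732 in the vehicle samples, and the groups overlapped. The means were 698 ± 142 and 678 ± 52.6 (SD, n = 3), with a log2 fold change of 0.03, a 95% interval from −0.30 to 0.35 and an adjusted p of 0.90 (limma). The direction was not stable: it turned negative without melatonin replicate 1 (−0.14) and without vehicle replicate 1 (−0.03), and under several scalings. *Pmaip1* lies at chr18:66591604-66598636 on the plus strand.

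**Figure D2:**
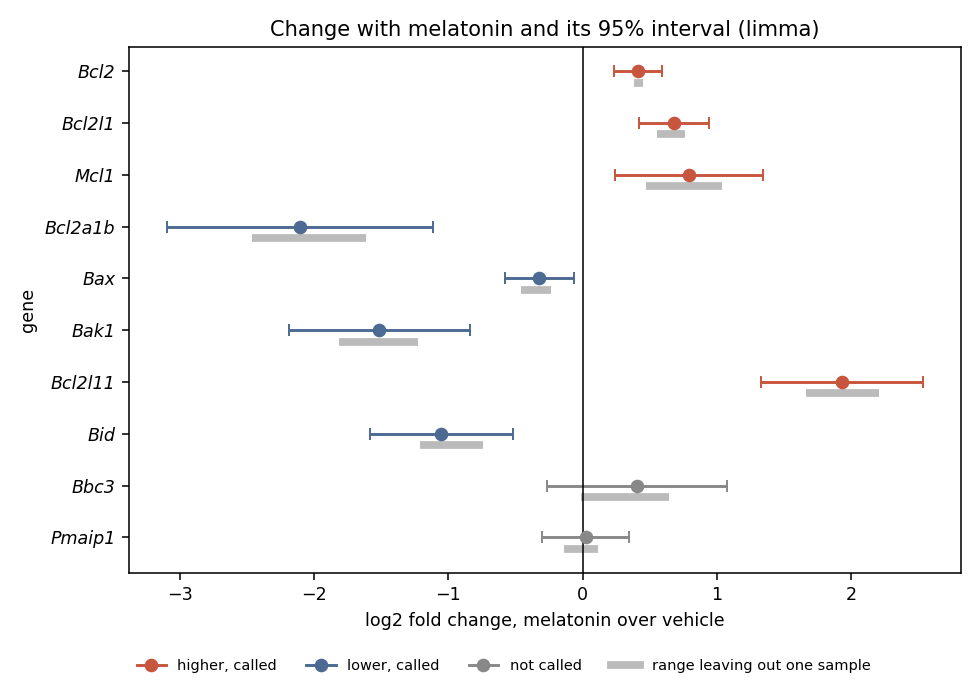
Log2 fold change, melatonin over vehicle (x axis), of each BCL2 family gene (y axis), with its 95% interval from limma as a thin bar and the range of the estimate over the 6 fits that each left out a sample as a thick gray bar. The gray bars of *Bbc3* and *Pmaip1* reach to or across 0, and *Bcl2l11* at 1.93 and *Bcl2a1b* at −2.11 are farthest from it.

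The sample that carried *Bbc3* also differed from the other melatonin samples in further targets of p53, the transcription factor that responds to DNA damage. Melatonin replicate 1 was 2.37-fold above the mean of melatonin replicates 2 and 3 for *Bbc3*, 1.40-fold for *Pmaip1* and 1.33-fold for *Bax*, all 3 known p53 targets. In a list of 12 other genes made of p53, its regulators and its targets, *Eda2r* reached the minimum of 10 only in this sample and is left out of the counts here. Of the remaining 11, this sample was above both other melatonin samples for 9, against 37.2% of all genes tested. It was above all 5 other samples for 5 of the 11, against 25.7% of all genes tested. *Phlda3*, a p53 target that restrains AKT, was at 2072 in this sample, at 928 and 862 in the other melatonin samples and between 1100 and 1180 in vehicle. *Cdkn1a*, the cell cycle inhibitor p21, was at 6836 in this sample, at 3944 and 4081 in the other melatonin samples and between 6502 and 6973 in vehicle. *Trp53* itself was not high in this sample, at 2399 against 2336 and 2736 in the other melatonin samples and 4079 to 4167 in vehicle. These comparisons single out a sample after its values were seen and carry no test. The same split separates the samples with and without Y-linked transcripts within the melatonin group, and the part of that difference was not tested.

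With melatonin replicate 1 as the only melatonin sample, the 4 members that rose were at 0.46 (*Bcl2*), 0.93 (*Bcl2l1*), 0.97 (*Mcl1*) and 2.48 (*Bcl2l11*) in log2 fold change, all called but *Mcl1* (limma, adjusted p = 0.077). Of the members that fell, *Bcl2a1b* was at −3.09, *Bak1* at −1.55 and *Bid* at −1.68, all called, and *Bax* at −0.04 was not (limma, adjusted p = 0.57). *Pmaip1* was called in this fit, at 0.35 (limma, adjusted p = 0.049). Without melatonin replicate 1, *Bcl2a1b* was at −1.61, *Bid* at −0.74 and *Bcl2l11* at 1.66, all closer to 0 and still called.

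**Figure D3:**
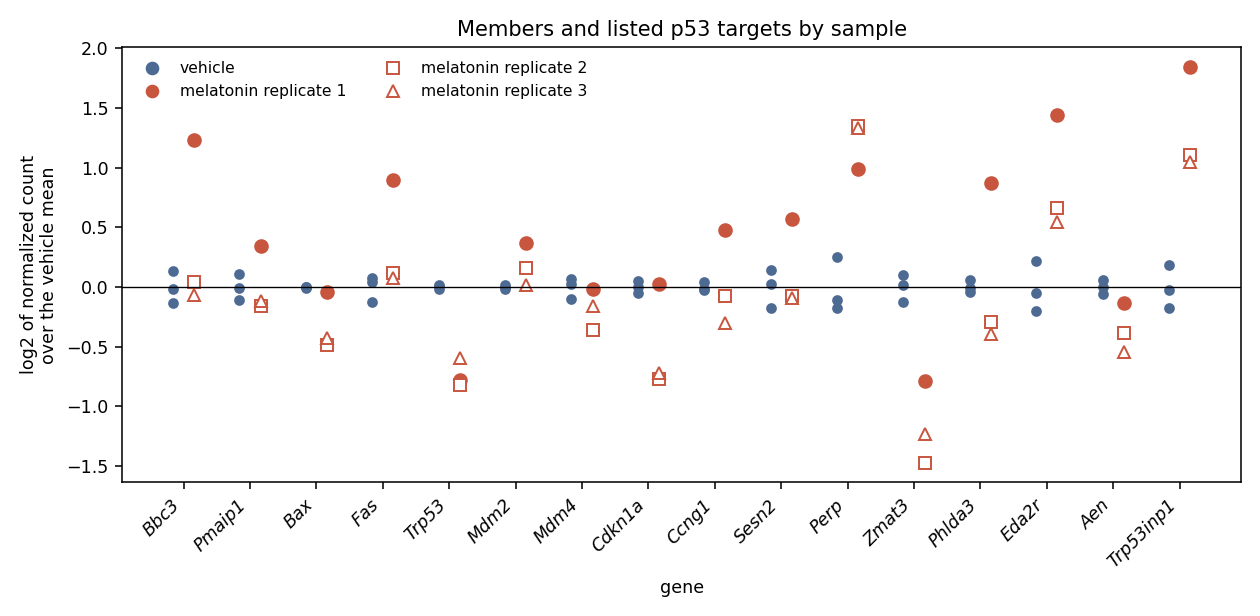
Log2 of the normalized count over the vehicle mean (y axis) for 3 BCL2 family members, *Fas* and the 12 genes of the p53 list (x axis), with a point for each sample. Melatonin replicate 1 (filled circle) is above the other melatonin samples (open symbols) for all genes shown but *Trp53* and *Perp*.

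The balance between the members of a pair can be read within a sample. There the scaling of the sample cancels, but an effect of transcript length does not. The ratios below are of normalized counts, not per length, so each is compared across samples only. *Bcl2* over *Bax* was 0.469, 0.587 and 0.606 in melatonin replicates 1, 2 and 3 and 0.348, 0.330 and 0.315 in the vehicle samples, a difference of 0.74 on the log2 scale. *Bcl2l1* over *Bax* was 0.523, 0.536 and 0.542 with melatonin and 0.261, 0.255 and 0.284 with vehicle, a log2 difference of 1.00. With the correction for transcript length, these differences were 0.41 for *Bcl2* over *Bax* and 0.64 for *Bcl2l1* over *Bax*. The SDs of *Bcl2l1* over *Bax* on the log2 scale were 0.03 with melatonin, the smallest of the 6 ratios in that group, and 0.08 with vehicle (n = 3). *Mcl1* over *Bak1* was 108, 130 and 57.5 with melatonin and 9.96, 22.5 and 28.6 with vehicle. That log2 difference of 2.31 was the largest.

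The remaining ratios did not all go one way. *Mcl1* over *Pmaip1* was 5.64, 6.56 and 6.49 with melatonin and 2.52, 4.06 and 4.75 with vehicle, a log2 difference of 0.77. *Bcl2* over *Bid* was 12.9, 6.13 and 6.70 with melatonin and 3.22, 2.66 and 2.92 with vehicle, a log2 difference of 1.47. *Bcl2* over *Bcl2l11* went the opposite way, at 4.57, 8.97 and 6.57 with melatonin and 22.3, 15.0 and 19.4 with vehicle, a log2 difference of −1.52. For all 6 pairs the groups did not overlap, and all members of these pairs but *Pmaip1* were separate on their own. No p is given, since these differences follow from the members' own changes. *Bcl2l11*, which rose, is in a single pair and *Bcl2a1b*, which fell, is in none. The 6 pairs therefore do not give the balance of the whole family.

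**Figure D4:**
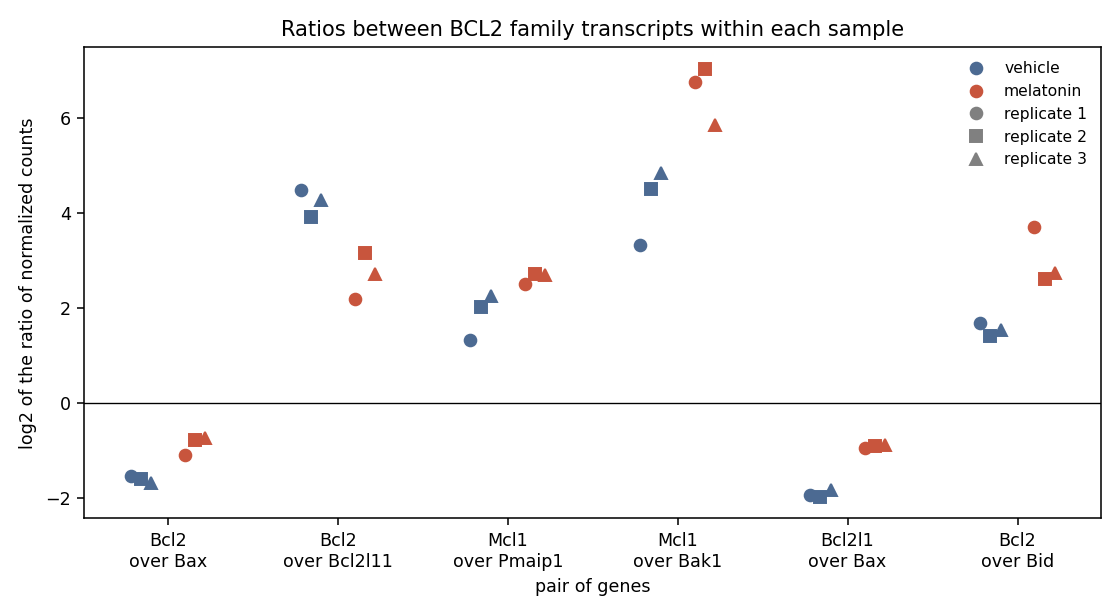
Log2 of the ratio between the normalized counts of 2 BCL2 family genes in the same sample (y axis) for 6 pairs (x axis), with a point for each sample. Melatonin is above vehicle in every pair but *Bcl2* over *Bcl2l11*, where all melatonin points are below all vehicle points. *Bcl2l11* is in a single pair and *Bcl2a1b* in none.

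Levels of different genes were compared per kilobase of the main transcript. *Bax* was highest in both groups, at 5355 ± 16.6 normalized counts per kb with vehicle and 4329 ± 753 with melatonin (SD, n = 3). *Mcl1* followed at 744 ± 274 and 1231 ± 138 per kb and *Bcl2l1* at 427 ± 25.3 and 690 ± 108 per kb. With vehicle, the *Mcl1* samples reached down to 453 per kb and the *Bcl2l1* samples up to 456 per kb, so these neighbors overlapped. The order of the top 3 was the same with melatonin, where *Mcl1* and *Bcl2l1* were separate.

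Below the top 3, the vehicle order was *Bid* at 269 per kb, *Pmaip1* at 248, *Bcl2* at 239, *Bbc3* at 206, *Bcl2a1b* at 59.0, *Bak1* at 56.2 and *Bcl2l11* at 18.6. The neighbors *Bid*, *Pmaip1* and *Bcl2* overlapped in turn, as did *Bcl2a1b* and *Bak1*, and *Bcl2l11* lay apart at the bottom. With melatonin the order was *Bcl2* at 318 per kb, *Bbc3* at 297, *Pmaip1* at 255, *Bid* at 135, *Bcl2l11* at 74.1, *Bak1* at 20.4 and *Bcl2a1b* at 14.4. There *Bcl2*, *Bbc3* and *Pmaip1* overlapped, as did *Bid* with *Bcl2l11* and *Bak1* with *Bcl2a1b*. *Bcl2l11* thus moved from rank 10 to rank 8 and *Bid* from 4 to 7. The level of *Bcl2a1b* is that of 1 copy as the authors' algorithm divided the reads, between 9.28% and 19.0% of the sum over the copies, so its rank is not that of A1. With the length of all exons merged, added after the data had been seen, *Bid* fell to rank 7 with vehicle and 8 with melatonin, *Bcl2l11* reached rank 7 with melatonin, and *Bax*, *Mcl1* and *Bcl2l1* stayed at ranks 1 to 3.

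The windows around the start sites of the members were read for motifs of factors that are known to act on this family. Windows of 300 bases, from 250 before to 50 after a start, were taken from RefSeq. Its build, GRCm38.p6, differs from that of the gene positions above. The search covered 14 windows of 9 of the 10 members. *Pmaip1* was left out of the search, so its start sites were not read for these motifs. The motifs were searched on both strands. The FOXO motif TGTTTAC was in windows of *Bcl2l11* and *Bbc3*, against 3.65% of all 32851 windows. The κB consensus of NF-κB, a motif with degenerate letters, was in windows of *Bcl2l1* and *Bbc3*, against 4.51%. The AP-1 motif TGANTCA was in the window of *Bcl2a1b*, against 7.81%, and also in those of *Bcl2a1a* and *Bcl2a1d*. The E-box CACGTG was in windows of *Bax* and *Bbc3*, against 7.15%, and the antioxidant response element TGACNNNGC in a window of *Bcl2l1*, against 12.4%. A match describes letters and not a bound site.

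Windows of 3 members are shown, the member that rose most, *Bcl2l1* as a called rise with an NF-κB match, and the member that fell most. Capitals mark the match. In *Bcl2l11* (chr2:128125788-128126087, plus strand) the FOXO match is on the opposite strand and begins 227 bases before the start. In *Bcl2l1* (chr2:152830668-152830967, minus strand) the NF-κB match begins 242 bases before the start. In *Bcl2a1b* (chr9:89199023-89199322, plus strand) the AP-1 match begins 164 bases before the start.
Bcl2l11: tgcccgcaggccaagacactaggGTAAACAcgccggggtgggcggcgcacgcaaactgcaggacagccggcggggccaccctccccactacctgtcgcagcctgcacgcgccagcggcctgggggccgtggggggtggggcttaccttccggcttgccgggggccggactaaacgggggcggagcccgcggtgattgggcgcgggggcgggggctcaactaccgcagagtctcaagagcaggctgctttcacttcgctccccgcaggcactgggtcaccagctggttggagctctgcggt
Bcl2l1: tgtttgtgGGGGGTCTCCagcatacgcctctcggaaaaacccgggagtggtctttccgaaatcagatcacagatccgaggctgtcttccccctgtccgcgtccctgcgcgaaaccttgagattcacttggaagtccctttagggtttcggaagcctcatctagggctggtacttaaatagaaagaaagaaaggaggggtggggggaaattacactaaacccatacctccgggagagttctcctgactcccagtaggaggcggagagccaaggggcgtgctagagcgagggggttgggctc
Bcl2a1b: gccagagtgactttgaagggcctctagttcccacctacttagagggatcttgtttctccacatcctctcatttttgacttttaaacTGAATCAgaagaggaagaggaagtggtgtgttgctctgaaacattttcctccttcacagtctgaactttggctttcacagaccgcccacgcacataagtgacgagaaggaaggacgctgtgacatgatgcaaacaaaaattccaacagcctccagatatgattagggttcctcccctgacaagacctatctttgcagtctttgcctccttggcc

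Of 16 further BCL2 family genes, 12 were tested, of which 3 rose, 6 fell and 3 did not pass. Over all genes tested, 24.5% were called higher and 24.7% lower. *Bcl2a1a* and *Bcl2l14* among the falls reached the minimum of 10 only through vehicle, so they could be called in that direction only. The other 10 reached it in both groups, and 3 of them rose, 4 fell and 3 did not pass. Their median log2 fold change was −0.10, against −0.81 with all 12 and −0.005 over all genes tested. The genes that rose were *Bad*, a BH3-only gene held off by survival kinases, at 0.64, *Bnip3* at 0.54 and *Bnip3l* at 0.92, both of which act in the removal of mitochondria. *Bok*, an effector related to *Bax* and *Bak1*, was at 26.1, 42.6 and 25.1 with melatonin and at 134, 142 and 153 with vehicle, 4.58-fold lower. *Bcl2l15* was at −2.14 and *Bcl2l2*, which makes the prosurvival protein BCL-W, at −1.49, with the remaining falls being *Bcl2a1a* and *Bcl2a1d* as above and *Bcl2l14*. *Bcl2l14* was at 0.934, 0 and 0 with melatonin and between 6.30 and 12.1 with vehicle, at least 3.06-fold lower against a floor of 3 counts per library. The BH3-only gene *Bik* was at −0.08 and not called, and *Bmf* was below the minimum for testing, between 0.937 and 8.40 in all samples. *Bcl2l10*, *Hrk* and *Bcl2a1c* had no row. The call of *Bcl2l2* rested on single samples: without melatonin replicate 2 the log2 fold change was −0.91 (limma, adjusted p = 0.077). Without each vehicle replicate in turn it was also not called, at −1.34, −1.46 and −1.69 (limma, adjusted p from 0.056 to 0.11).

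Downstream of the mitochondria, the apoptosome list (cytochrome c, APAF1, caspases, their inhibitors and the VDAC channels) had 21 genes tested, 4 higher, 8 lower and 9 not called, with a median of −0.28. For this and the lists that follow, the shares over all genes tested were 24.5% higher and 24.7% lower. *Casp9*, the initiator caspase of this route, was higher at 0.61 (limma, adjusted p = 0.0016). *Apaf1*, the scaffold of the apoptosome, was at 0.01 and *Cycs*, cytochrome c, at −0.28, and neither was called. With melatonin replicate 1 as the only melatonin sample, *Cycs* was called lower at −0.65 (limma, adjusted p = 0.0067), and without that sample it was at −0.09 (limma, adjusted p = 0.46). The calls whose log2 fold change was 1 or more in size were *Endog*, a mitochondrial nuclease, at −1.09 and *Vdac2*, a channel that holds BAK at mitochondria, at −1.05. *Vdac2* was at 2485, 2757 and 2790 with melatonin and at 5587, 5653 and 5328 with vehicle, and the groups were wide apart.

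The death receptor list, which leads to BID, had 9 genes tested, 2 higher, 4 lower and 3 not called. *Fasl* reached the minimum only through vehicle, and without it 2 of 8 genes were higher, 3 lower and 3 not called, with a median of 0.11 against −0.04 with it. *Fasl*, the ligand of FAS, was listed at 0 in all melatonin samples and at 26.1, 19.7 and 23.1 with vehicle, at least 7.58-fold lower against a floor of 3 counts per library. *Tnfrsf1a*, a receptor of TNF, was at −1.24 (limma, adjusted p = 0.0046). *Fasl* is also a gene of NK and T cells, whose markers are given above, and their part in its fall was not tested.

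The lists of factors known to act on these genes held calls in both directions. The p53 list had 12 genes tested, 2 higher, 3 lower and 7 not called, with a median of 0.05. Without *Eda2r* the counts were 2, 3 and 6 of 11 and the median 0.03. *Trp53* was at −0.73 (limma, adjusted p = 0.00024), *Zmat3* at −1.16, *Perp* at 1.23 and *Trp53inp1* at 1.34, the last 3 being p53 targets. *Cdkn1a* was at −0.49 and not called (limma, adjusted p = 0.053), but at −0.75 and called without melatonin replicate 1 (limma, adjusted p = 5.7e-05). The integrated stress response list had 8 genes tested, 3 higher, 2 lower and 3 not called, with *Ddit3*, which encodes CHOP, at 0.35 (limma, adjusted p = 0.018) and *Atf3* at −1.28. The call of *Ddit3* was lost without vehicle replicate 2 (limma, adjusted p = 0.075) or vehicle replicate 3 (limma, adjusted p = 0.060).

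The list of FOXO factors and survival cytokine signaling had 12 genes tested, 4 higher, 4 lower and 4 not called, with a median of −0.02. FOXO factors can switch on *Bcl2l11*. *Foxo1* was at 1917, 1734 and 1353 with melatonin and at 610, 1042 and 1308 with vehicle, with a log2 fold change of 0.81 (limma, adjusted p = 0.025). That call was lost without melatonin replicate 1 (limma, adjusted p = 0.065), melatonin replicate 2 (limma, adjusted p = 0.075) or vehicle replicate 2, and without vehicle replicate 1 the log2 fold change was 0.50. *Foxo3* was at −0.06 and not called. *Il7r*, the IL-7 receptor chain that was in the sorting gate as CD127, was at 1655, 743 and 700 with melatonin and at 2071, 2103 and 1811 with vehicle. Its log2 fold change was −1.06 (limma, adjusted p = 0.013), and the call was lost without melatonin replicate 2 (limma, adjusted p = 0.053). With melatonin replicate 1 as the only melatonin sample it was −0.27 (limma, adjusted p = 0.077). *Akt1*, a survival kinase, was at 4700, 5539 and 1904 with melatonin and at 1305, 1569 and 2551 with vehicle. The groups overlapped, and its log2 fold change of 1.08 (limma, adjusted p = 0.041) lost the call in 4 of the 6 fits that left out a sample. The list of genes for MCL1 and BIM protein turnover had 7 genes tested, 3 higher, 2 lower and 2 not called.

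**Figure D5:**
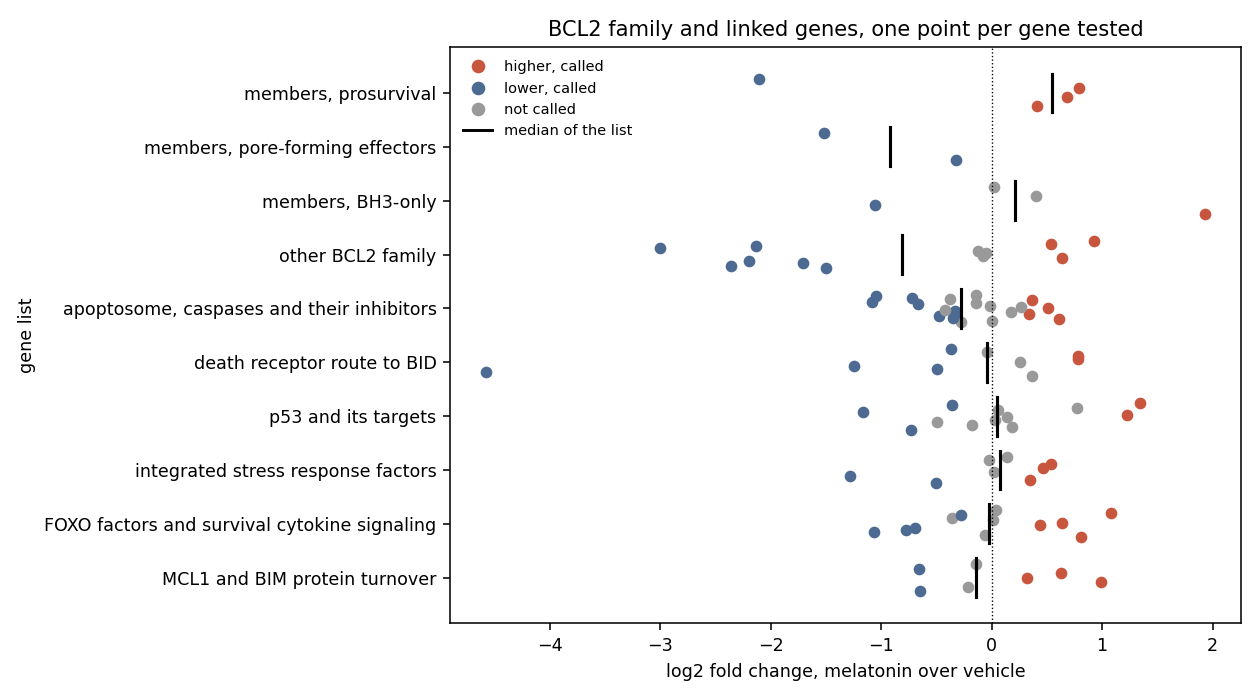
Log2 fold change, melatonin over vehicle (x axis), of the BCL2 family members and of each list of linked genes (y axis), with a point per gene tested and a line at the list's median. *Sesn2* is on 2 lists, and *Bcl2l14* and *Fasl*, at or under the floor in melatonin, are drawn at their fitted values, which are no bounds. The 12 other BCL2 family genes have a median of −0.81, which is −0.10 without *Bcl2a1a* and *Bcl2l14*. The medians of the 6 lists below them lie between −0.28 and 0.08.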

How the data were processed

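Bulk RNA sequencing was done on 3 melatonin-treated and 3 vehicle aILC2 samples. Per the methods, the authors used Partek Flow for trimming, STAR 2.7.8 for alignment to mm39 and the E/M algorithm of Partek for quantifying Gencode M33 genes, and removed genes with fewer than 10 counts. The values deposited by the authors were treated as a signal: estimated counts, which need not be whole, divided by a median ratio size factor. At a tolerance of 0.01 reads, 64.7% of the values above 0 were whole reads, so no count test was used. The value of 1 read, found from the spacing of the values, gave the estimated counts.

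Differences were tested with limma 3.58.1 (R 4.3.3), using lmFit and a trended eBayes, on log2(value + 1) for the genes that reached 10 in 1 or more samples. Treatment was the only term, and p-values were adjusted by Benjamini-Hochberg over all genes tested. The test was run on simulated data first. Names, positions and lengths came from Gencode M39, which named 16334 of the 16381 genes. The members and lists were chosen with earlier results of these data known. All 10 members are named. Of the other lists, the text names called genes whose log2 fold change was 1 or more in size and a short set chosen whatever its values, of which 1 gene is not reported here. *Bnip3*, *Bnip3l*, *Phlda3*, *Fas*, *Sesn2*, *Foxo1*, *Eda2r*, *Scgb1a1*, *Sftpc* and *Epcam* fall outside that rule and were named after their values were seen. Alternatives were pseudocounts, filters, scalings, limma settings, voom, the replicate block, samples left out and a stricter threshold. Corrections for length and GC content, a fit without chromosomes X and Y and the summed *Bcl2a1* copies were added after the data had been seen. The promoter motifs were chosen with the members' changes known, and the letters of the NF-κB motif were changed after first matches had been seen.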

Additional observations from a re-analysis of the deposited data

How the results depend on the processing

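*Bcl2*, *Bcl2l1*, *Bcl2a1b*, *Bak1*, *Bcl2l11* and *Bid* kept their direction and their call under every alternative that tested them. *Bcl2a1b* and *Bak1* were not tested at a mean of at least 100 normalized counts, where the number of members called lower was 2 and of other BCL2 family genes called lower was 1. That filter uses the mean over all samples and so drops genes that fell, such as *Bok* and *Bcl2l15*, whose vehicle means of 143 and 157 exceed it. At an adjusted p under 0.01, 11 of the 68 linked genes tested in the other lists were called higher and 14 lower. At 0.05 these counts were 18 and 23, with 24.5% and 24.7% of all genes tested called higher and lower. *Mcl1* (0.79) and *Bax* (−0.32) were not called at 0.01. Samples with the same replicate number did not deviate together (correlations of −0.05, 0.01 and −0.05), and the replicate block left *Bax* at −0.32 (limma, adjusted p = 0.053) and kept the other 7 calls among the members. Of the further genes named, the block ended the calls of *Akt1* (limma, adjusted p = 0.081), *Bcl2l2* (0.053) and *Foxo1* (0.051).

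*Mcl1* lost its call in limma without the trend (0.79, adjusted p = 0.081) and without melatonin replicates 2 and 3 (0.97, adjusted p = 0.077). Leaving out a sample moved it between 0.47 and 1.04. *Bax* lost its call when scaled to the same total (−0.28), under quantile normalization (−0.22), in limma without the trend (−0.32), under voom (−0.28), without melatonin replicates 2 and 3 (−0.044) and with the length correction (−0.064), and it ranged from −0.46 to −0.24 without a sample. *Bbc3* was called at 1.24 without melatonin replicates 2 and 3 and ranged from −0.01 to 0.64 without a sample. *Pmaip1* turned to −0.043 under quantile normalization, −0.025 under upper quartile scaling, −0.073 with sample weights, −0.048 with the length and −0.10 with the GC correction, was called at 0.35 without melatonin replicates 2 and 3, and ranged from −0.14 to 0.11 without a sample.

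Among genes not called, *Apaf1* turned to −0.040 under quantile normalization, −0.042 under upper quartile scaling, −0.036 with sample weights, −0.087 with the length and −0.034 with the GC correction, and ranged from −0.054 to 0.043 without a sample. *Bik* turned to 0.10 without melatonin replicates 2 and 3, 0.18 with the length and 0.018 with the GC correction. *Cdkn1a* turned to 0.022 without melatonin replicates 2 and 3, and was called lower with a pseudocount of 10 (−0.49, adjusted p = 0.049), upper quartile scaling (−0.54, adjusted p = 0.039) and sample weights (−0.66, adjusted p = 0.0012). *Cycs* was called lower at −0.42 with the GC correction (adjusted p = 0.038). In limma without the trend, the calls of *Il7r* (adjusted p = 0.055), *Bcl2l2* (0.078), *Foxo1* (0.082) and *Akt1* (0.12) were lost, and under quantile normalization those of *Ddit3* (0.054) and *Bcl2l2* (0.071). *Akt1* also lost its call with the length correction (0.055) and *Foxo1* without melatonin replicates 2 and 3 (0.062). *Foxo3* turned to 0.16 without these and 0.028 with the GC correction, and ranged from −0.28 to 0.26 without a sample. The cause of these shifts was not tested. Estimated counts as low as 5.20 limit the precision of *Bcl2a1b*, and 3 samples per group limit that of every value.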
